A study of Glycine max with 9 samples.

Results

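The genes described here are the most abundant transcripts of soybean root tips: the 130 gene identifiers, of 62645 in the table, whose summed FPKM averaged at least 500 over the control libraries. FPKM is the number of sequenced fragments scaled by transcript length and by the library's total, so that it compares genes per length. An identifier also had to hold a RefSeq messenger RNA and to carry only names that start with LOC, the provisional symbol of a gene that has not been given a name of its own. Of the 43965 identifiers of that kind, 27873 reached 1 FPKM in 3 or more libraries and were tested, together with others, among 32763 tested genes. All 130 members are annotated as protein coding and all 130 passed that filter. Since the level in the control libraries chose them, their values at t0 are given as a description. The fold changes of t40 against t20 use no control library. Their SE, p-values and calls do, because all 9 libraries shared one estimate of the spread.

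In most eukaryotic tissues a small number of genes supplies a large part of the messenger RNA. In growing plant organs such as root tips these are typically genes for protein synthesis (ribosomal proteins and elongation factors), for protein turnover such as ubiquitin, for cell walls, and for the aquaporins that let water pass through the plasma membrane and the vacuole membrane. FPKM is relative to a library's fragments, so a smaller FPKM can go with less RNA of that gene or with more RNA of other genes.

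The soybeans (Glycine max cv. Williams 82) had grown in diluted Hoagland solution for 4 weeks, and sucrose was added to the solution to 10 mM. Sections of 2 cm that hold the root tip were taken before the addition (t0, no sucrose), after 20 min (t20) and after 40 min (t40), from 3 plants each. No group received the addition without sucrose, so time in the changed solution and sucrose cannot be told apart. Libraries go by their number in the table, with libraries 1, 2 and 3 at t0, libraries 4, 5 and 6 at t20, and libraries 7, 8 and 9 at t40.

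Total FPKM was 638361 to 720621 per library, and the table gives no fragment counts, so the depth behind a value is not known from it. By the study's own read totals the t40 libraries were the smallest group. Its alignment rates were also lower in every t40 library than in any library of the other times. The part of this difference in the values below was not tested. As a check of the tissue, 5 genes with haemoglobin symbols were looked up. The leghaemoglobins LBA, LBC1, LBC2 and LBC3, which mark nodules, had 0 FPKM in every t0 library. GLB3, which its symbol does not mark as a leghaemoglobin, averaged 6.35 FPKM at t0. Of 50 root transporter genes 36 averaged at least 1 FPKM at t0. The summed FPKM of the root transporters was 4311 to 5549 in the t0 libraries, 5832 to 11670 at t20, with library 5 the lowest of these, and 6299.5 to 8825 at t40, so that every treated library was above every control. Of 5 genes of leaf photosynthesis 3 averaged at least 1 FPKM at t0, and their summed FPKM ranged over 144 to 355 in the t0 libraries, 165 to 686 in those of t20, and 109 to 140.5 in those of t40. Library 3 stood apart from the other controls: it was the highest control library for 105 of the 130 members, against 22.3% of all tested genes. Ribosomal RNA loci summed to 12140 FPKM in library 3 and to 2230 and 3582 FPKM in libraries 1 and 2. They summed to 1632 to 4745 FPKM at t20 and 693 to 1850 FPKM at t40. The part of ribosomal RNA, leaf genes and root transporters in the values below was not tested.

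In number the 130 members equal 0.397% of the tested genes, and they held 13.3 ± 1.89% of all FPKM at t0 (SD, n = 3 here and below), 10.6 ± 1.89% at t20 and 8.12 ± 0.614% at t40. Per library their share was 12.2%, 12.3% and 15.5% at t0, 8.47%, 12.04% and 11.3% at t20 and 7.59%, 7.98% and 8.79% at t40. Every treated library was below every control, with libraries 5 and 6 just under the lowest control and library 4 among the t40 libraries. Because the control libraries chose the members, part of their higher share at t0 is built in. With 64 members chosen on the mean of all 9 libraries, the share was 7.61 ± 0.672% at t0. It was then 6.88 ± 0.769% at t20 and 6.04 ± 0.129% at t40, a smaller change. The median member had 561, 606 and 812 FPKM at t0, 323, 602 and 498 FPKM at t20 and 270, 279 and 352 FPKM at t40. Of the 130, 57 still averaged at least 500 FPKM at t20 and 16 did so at t40. Only 11 had at least 500 FPKM in each of the 9 libraries. In bulk tissue, fewer cells of a type and less RNA per cell cannot be told apart.

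**Figure D1:**
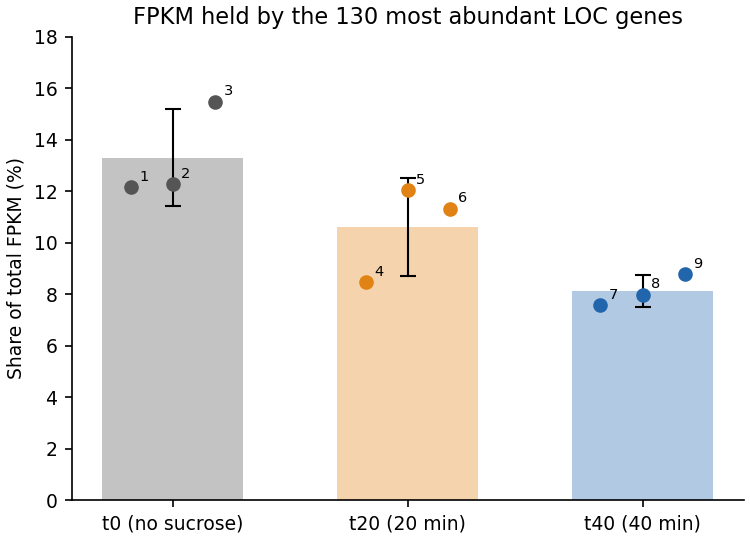
Share of total FPKM (%) held by the 130 members, by time of sucrose; points are the 9 libraries with their numbers, bars the mean and lines the SD of 3 libraries. The mean is 13.3% at t0, 10.6% at t20 and 8.12% at t40, and library 4 lies far below the other t20 libraries. The t0 libraries chose the members, so part of the difference is built in.

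Members were short and simple transcripts. The most abundant transcript had a median length of 785.5 bases (431 to 2820), against 1674 bases for all tested genes, and 123 of the 130 were shorter than that tested median. Tested genes with a control mean of 50 to 500 FPKM had a median of 1062 bases, so short transcripts were not particular to the members. The most abundant transcript of the members had a median of 4 exons, against 5 for all tested genes. A single transcript was listed for 90 members (69.2%), against 44.7% of tested genes. In 16 of the 40 members with more than 1 transcript, the most abundant one was not the same in all 9 libraries. Members lay on all 20 chromosomes, with 14 on chromosome 11, 13 on chromosome 8, 11 on chromosome 10 and 1 each on chromosomes 4 and 6. No member was next to another: the closest pair, LOC100305473 and LOC100527338 on chromosome 1, was 33805 bases apart with 4 coding genes between them. For 13 members the assembly joined more than 1 annotated gene under one identifier, and those are written with a plus sign because their values cannot be separated.

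At 40 min 121 of the 130 transcripts had a lower mean than in the control. With limma on log2(FPKM + 1) and a Benjamini-Hochberg adjusted p under 0.05, 85 of the 130 were at least 2-fold lower at t40 than at t0 and 2 were at least 2-fold higher. Among all tested genes the same rule called 3.49% lower and 10.5% higher. Without the fold threshold 103 members were lower and 2 higher, against 8.86% and 14.7% of all tested genes. The median log2 fold change of the members was −1.12, with the middle 50% between −1.34 and −0.89, against 0.06 for all tested genes. In 114 members (87.7%) every t40 library was below every t0 library, as in 20.8% of tested genes, and in 6 members (4.62%) every t40 library was above, as in 26.6%. Nothing is read from these counts as such, because the same control libraries chose the members.

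The median member was also lower at t40 under other choices of members. When members were chosen on 2 control libraries and compared with the one left out, the median log2 fold change at t40 was −0.88 against library 1 (161 members), −1.05 against library 2 (140 members) and −1.31 against library 3 (105 members). The medians of all tested genes in these comparisons were −0.04, −0.05 and 0.29, so that the comparison with library 3 moved all genes as well. When members were chosen on the mean of all 9 libraries, which again uses the t0 and t40 values, 33 of 64 were called lower and 7 higher, against 3.49% and 10.5% of all tested genes. The number of calls depended strongly on single libraries: 87 in all became 31 without library 3, 21 without library 7 and 19 without library 8, of which 31, 20 and 19 were among the 87. Calls over all tested genes fell too, to 2.15%, 1.84% and 1.65% lower and 7.47%, 7.49% and 7.51% higher in those fits. The median log2 fold change of the members stayed at −0.95, −1.07 and −1.10 there. Quantile normalization, which gives all libraries one distribution of values, left 10 lower and 3 higher calls (76.9% lower, against 97.7% in the FPKM as deposited) and a median of −0.52, where 4.95% of all tested genes were called lower and 8.21% higher. With no filter on low values 56 members were called lower and 0 higher, against 1.81% and 6.01% of all genes, while 2 were at least 2-fold higher at an unadjusted limma p under 0.05. Quantile normalization moved the median of all tested genes to −0.11, and rescaling each library to one total moved it to 0.18, where the members' median was −0.99.

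**Figure D2:**
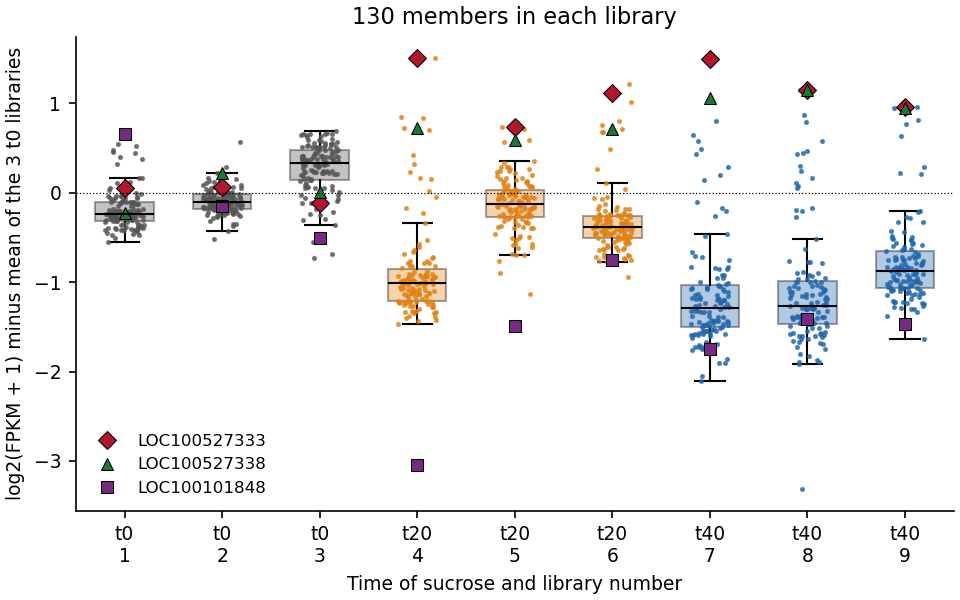
Level of the 130 members in each library as log2(FPKM + 1) minus the mean of the 3 t0 libraries (vertical axis), libraries 1 to 9 by time of sucrose; boxes span the middle 50% with the median as a line, dots are members, and 3 members are marked. The median is 0.33 in library 3, −1.01 in library 4 and −1.29, −1.26 and −0.87 in libraries 7, 8 and 9.

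At 20 min no member was called in either direction, where 0.766% of all tested genes were called higher and 0.156% lower. At an unadjusted limma p under 0.05, 25 members were lower and 3 higher. The share of all tested genes at that limit is not given here. With a 2-fold change as well, LOC100527333 was higher and LOC100101848 lower, beside 1748 higher and 417 lower of the 32763 tested genes. The lowest adjusted p of a member was 0.0754, of LOC100527333. Without library 5 this gene alone among the members passed, with a log2 fold change of 1.31 (SE 0.25, adjusted p = 0.0146). The median log2 fold change of the members was −0.53, against 0.02 for all tested genes, and 121 of 130 had a lower mean. In 25 members every t20 library was below every control, as in 7.73% of tested genes, and in 4 every one was above, as in 10.6%. The t20 libraries differed among themselves more than those of the other times: relative to the controls the median member stood at −1.01 in library 4, −0.12 in library 5 and −0.38 in library 6 on the log2 scale. Library 4 was the lowest t20 library for 114 members, and library 5 the highest for 108.

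Between t40 and t20 no member was called by limma either, where 1.3% of all tested genes were called higher and 0.058% lower. At an unadjusted limma p under 0.05, 56 members were lower and 0 higher. The share of all tested genes at that limit is not given here. With a 2-fold change as well, 8 members were lower and 0 higher, beside 219 lower and 1478 higher of the 32763 tested genes. The lowest adjusted p of a member was 0.092, of LOC100810363+LOC100820352. The median log2 fold change of the members was −0.64, against 0.02 for all tested genes, and 120 of 130 members had the lower mean at t40. In 25 members (19.2%) every t40 library was below every t20 library, as in 9.81% of tested genes, and in 5 (3.85%) every one was above, as in 15.9%. The calls depended on library 4: without it 23 members were called lower and the median was −0.92, and without library 5 no member was called and the median was −0.44. The share of all tested genes called in these fits is not given here. Among the t40 libraries, library 9 was the highest for 110 members.

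**Figure D3:**
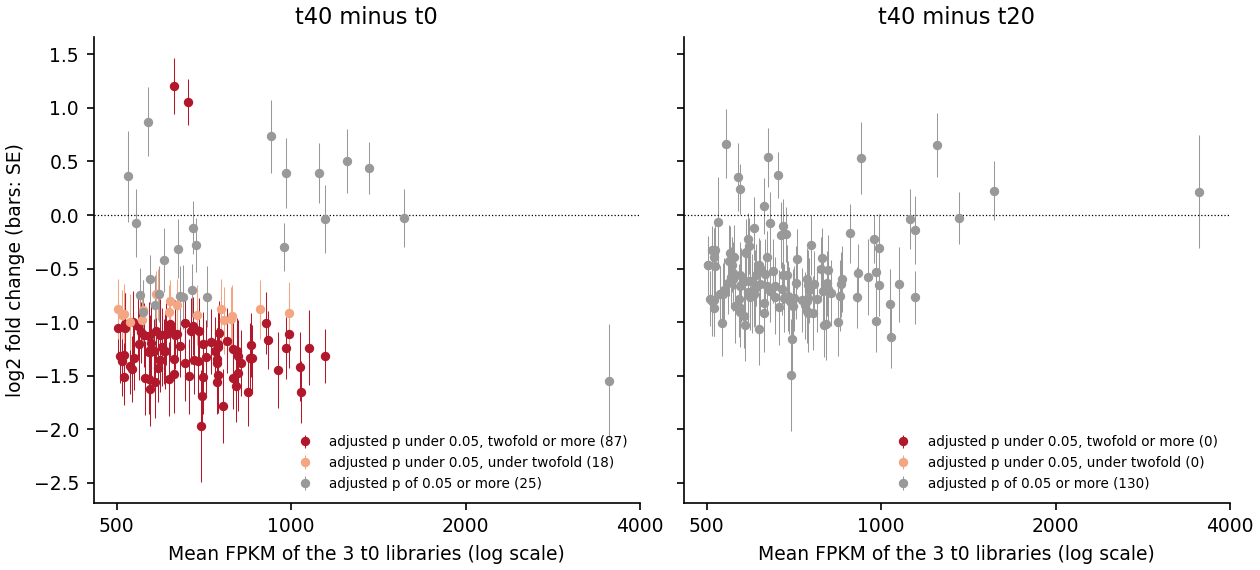
Log2 fold change with its SE (vertical axis) of the 130 members against their mean FPKM at t0 (log scale), for t40 minus t0 (left) and t40 minus t20 (right); colours give the limma call. On the left 87 members pass at 2-fold or more, 18 pass below 2-fold and 25 do not pass; on the right none of the 130 passes, although 120 lie below 0.

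The reference lists a synonym for 8 of the members, and these were picked for that reason. They include 2 aquaporins of the vacuole membrane (tonoplast intrinsic proteins, TIPs), which conduct water between cytosol and vacuole. LOC100527333 (GmTIP2;2, chromosome 11, 2478328 to 2481048 on Glycine_max_v4.0) had 651, 654 and 577 FPKM at t0, 1779, 1041 and 1356 FPKM at t20 and 1768, 1394 and 1220.2 FPKM at t40. Every sucrose-treated library was above every control, and library 4 and library 7 were the highest. Its log2 fold change at t40 was 1.20 (SE 0.26, adjusted p = 0.0121), the largest rise among the members, and at t20 it was 1.12 (SE 0.26, adjusted p = 0.0754). The call at t40 was lost without library 7, with an adjusted p of 0.0572 at a log2 fold change of 1.06, and with no filter on low values (adjusted p = 0.0564). LOC100527509 (GmTIP1;8, chromosome 19, 44903962 to 44905296), with 1079, 972 and 1307 FPKM at t0, 1802, 1040 and 1778 FPKM at t20 and 1566, 1538 and 1283 FPKM at t40, overlapped the controls at both times, and its log2 fold change at t40 was 0.39 (SE 0.28, adjusted p = 0.321).

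Ubiquitin, the small protein whose chains mark other proteins for breakdown, was represented by 2 members. LOC100799042 (SUBI-3, chromosome 20, 38022777 to 38024536) had 1379, 953 and 1418 FPKM at t0, 1187, 767 and 1477 FPKM at t20 and 1501, 1843 and 1909 FPKM at t40. LOC100791065 (listed as ubiquitin, chromosome 10, 48063353 to 48065184) had 920, 623 and 1225 FPKM at t0, 1046, 677 and 1507 FPKM at t20 and 1389, 1539 and 1511 FPKM at t40. In both, every t40 library was above every control while the t20 libraries overlapped the controls, with library 5 the lowest of them. Neither passed: the log2 fold change at t40 was 0.50 (SE 0.30, adjusted p = 0.239) for the first and 0.73 (SE 0.34, adjusted p = 0.139) for the other. The sequences of ubiquitin genes are repetitive and alike, so that reads can be divided between them uncertainly.

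Cytosolic glutamine synthetase, which joins ammonium to glutamate and so brings inorganic nitrogen into amino acids, was also represented by 2 members. LOC548082 (GS1-1, chromosome 11, 35760291 to 35764635) had 1406, 883 and 1147 FPKM at t0, 1404, 783 and 1579 FPKM at t20 and 1002, 1329 and 980.1 FPKM at t40. Its libraries overlapped at all times, with a log2 fold change at t40 of −0.04 (SE 0.32, adjusted p = 0.934). LOC547953 (GS1beta2, chromosome 18, 3448601 to 3452904) had 807, 503 and 499 FPKM at t0, 594, 386 and 479 FPKM at t20 and 359.9, 611 and 385 FPKM at t40, again with overlap, and a log2 fold change of −0.42 (SE 0.30, adjusted p = 0.322). One transcript carried nearly all of the FPKM of LOC548082, since its other listed transcript reached at most 2.09 FPKM.

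LOC548038 (TCTP, translationally controlled tumor protein, a conserved protein tied to cell growth) and LOC100788584 (GmSS, an abbreviation the reference does not spell out) were among the steadiest members. LOC548038 (chromosome 9, 3743403 to 3745125) had 1046, 1016 and 854 FPKM at t0, 763, 1032 and 999 FPKM at t20 and 703, 838 and 834 FPKM at t40, a ratio of 1.49 between its highest and lowest library. LOC100788584 (chromosome 17, 3408151 to 3415527) had 748, 524 and 759 FPKM at t0, 746, 532 and 722 FPKM at t20 and 623, 704 and 532 FPKM at t40, a ratio of 1.45 and the smallest of all members. Its log2 fold change at t40 was −0.12 (SE 0.25, adjusted p = 0.752), and that of LOC548038 was −0.29 (SE 0.22, adjusted p = 0.352). The steady sum of LOC100788584 was made of 10 transcripts, of which the most abundant one had 264, 100.4 and 342 FPKM at t0, 362, 231 and 397 FPKM at t20 and 292, 204 and 47.8 FPKM at t40. The next one had 213, 275 and 230.5 FPKM at t0, 275, 199.9 and 143 FPKM at t20 and 176, 275 and 388 FPKM at t40, so that the order of these forms differed between libraries of one time.

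The other members carry LOC numbers only, and neither the table nor the reference gives them a description. The most abundant of all was LOC100101848 (chromosome 10, 44731614 to 44732499, a transcript of 514 bases), with 5258, 3008 and 2351 FPKM at t0, 403, 1183 and 1986 FPKM at t20 and 991, 1249 and 1203 FPKM at t40. All treated libraries were below all controls, the controls themselves differed by more than 2-fold, and library 4 was the lowest of all. The mean was 1148 ± 138 FPKM at t40, against 3539 ± 1525 FPKM at t0. Its log2 fold change was −1.76 (SE 0.53, adjusted p = 0.135) at t20 and −1.55 (SE 0.53, adjusted p = 0.0576) at t40, and neither passed. At t40 it was called without library 4 (adjusted p = 0.00924) and without library 6, but in none of the other 7 fits that leave out 1 library. It was also called with quantile normalization (−1.55, adjusted p = 0.0437), with median-ratio scaling, which divides each library by its median ratio to the mean library (−1.65, adjusted p = 0.0475), and when the t20 libraries were kept out of the fit (adjusted p = 0.00925). It made up 0.499% of all control FPKM, more than the next 2 members together.

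The next 2 by control level were not called. LOC100783793 (chromosome 9, 810947 to 813215) had 1987, 1512 and 1192 FPKM at t0, 1310.3, 1084 and 1482 FPKM at t20 and 1684, 1645 and 1220.4 FPKM at t40, with overlap between all times and a log2 fold change at t40 of −0.03 (SE 0.27, adjusted p = 0.949). LOC100814402 (chromosome 15, 9012501 to 9014828) had 1104, 1394 and 1593 FPKM at t0, 1805, 1651 and 2160.1 FPKM at t20 and 2017, 1836 and 1649 FPKM at t40. Every treated library of LOC100814402 was above every control, but the distance was small and the log2 fold change at t40 was 0.44 (SE 0.24, adjusted p = 0.209).

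A further 5 of the 12 most abundant members were lower at t40. They do not include LOC100810363+LOC100820352 (rank 9), which is given below among the largest falls and passed in all 9 fits that leave out 1 library. LOC100305467+LOC100796543+LOC112998378 (chromosome 11) had 1059, 975 and 1401 FPKM at t0, 603, 799 and 963 FPKM at t20 and 411, 457 and 498 FPKM at t40, and its log2 fold change at t40 was −1.32 (SE 0.25, adjusted p = 0.00686). LOC100306626 (chromosome 3) had 809.7, 959 and 1449.8 FPKM at t0, 447, 1016 and 726 FPKM at t20 and 372, 398 and 579 FPKM at t40, with −1.24 (SE 0.35, adjusted p = 0.031). LOC100795507+LOC100796037 (chromosome 20) had 823, 950 and 1335 FPKM at t0, 436, 944 and 752 FPKM at t20 and 342, 338 and 474 FPKM at t40, with −1.41 (SE 0.32, adjusted p = 0.0144). In these 3 genes every t40 library was below every control, and library 3 was the highest control. LOC100817876 (chromosome 20) had 829, 922 and 1218 FPKM at t0, 371, 813 and 584 FPKM at t20 and 359.6, 445 and 577 FPKM at t40, with −1.11 (SE 0.32, adjusted p = 0.0336). LOC100817746+LOC100818819 (chromosome 7) had 927, 1021 and 1033 FPKM at t0, 560.5, 1213 and 833 FPKM at t20 and 476, 497 and 615 FPKM at t40, with −0.91 (SE 0.29, adjusted p = 0.0446), a fall short of 2-fold whose adjusted p reached 0.142 without library 7. Of these 5, only LOC100305467+LOC100796543+LOC112998378 passed at 2-fold in all 9 fits that leave out 1 library. The call was lost without library 2, 3, 7 or 8 in LOC100306626 (adjusted p of 0.0657 to 0.109), without library 3, 7 or 8 in LOC100795507+LOC100796037 (0.052 to 0.0599) and without library 2, 3, 6, 7 or 8 in LOC100817876 (0.0528 to 0.126). With no filter on low values LOC100306626 (adjusted p = 0.0758) and LOC100817876 (adjusted p = 0.0793) were not called. Quantile normalization left −0.97 for LOC100306626 and −0.67 for LOC100817876, both short of 2-fold, and rescaling to one total left −0.98 for LOC100817876. With the most abundant transcript in place of the sum, LOC100795507+LOC100796037 had −1.05 with an adjusted p of 0.118. LOC100817746+LOC100818819 passed at 2-fold with median-ratio scaling (−1.02, adjusted p = 0.0415).

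**Figure D4:**
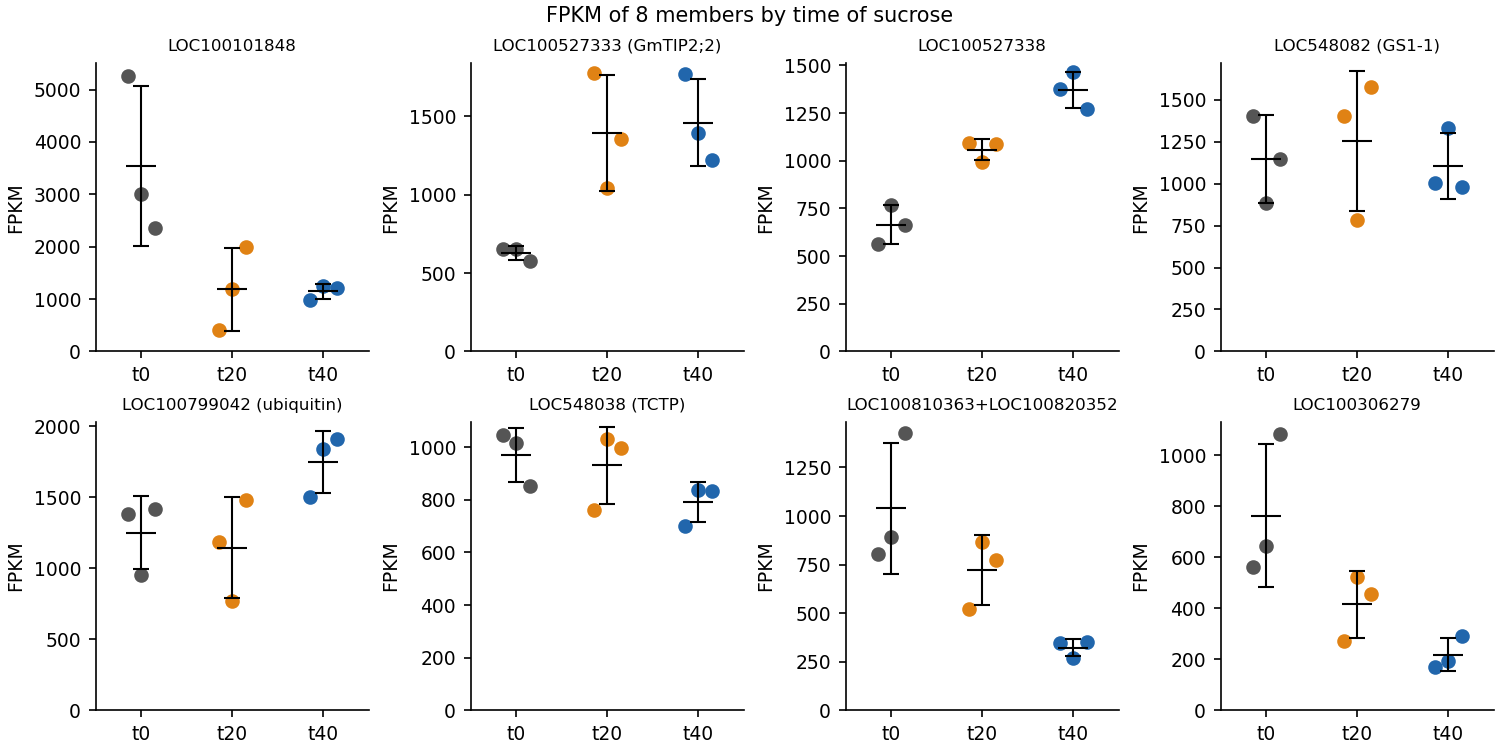
FPKM (vertical axes, from 0) of 8 members by time of sucrose; points are libraries in order of their number, bars the mean and SD of 3. LOC100527333 and LOC100527338 lie above the controls at both times, LOC548082 and LOC548038 overlap them, and LOC100101848, LOC100810363+LOC100820352 and LOC100306279 lie below them at 40 min.

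The other member called higher at t40 was LOC100527338 (chromosome 1, 55108201 to 55110704), with 564, 769 and 661 FPKM at t0, 1094, 995 and 1086 FPKM at t20 and 1377, 1463 and 1274 FPKM at t40. The 3 groups did not overlap, with t20 between t0 and t40. Its log2 fold change was 1.05 (SE 0.21, adjusted p = 0.00913) at t40 and 0.68 (SE 0.21, adjusted p = 0.151) at t20, and it fell short of 2-fold at t40 without library 1 (0.94) and with median-ratio scaling (0.95). With no filter on low values its adjusted p was 0.0514, so that neither of the 2 rising members was then called. A further member, LOC102660930+LOC547872 (chromosome 13), had 577, 789.8 and 330 FPKM at t0, 599, 791 and 931 FPKM at t20 and 931, 975 and 1017 FPKM at t40. All of its t40 libraries were above the controls, and its log2 fold change of 0.87 (SE 0.32, adjusted p = 0.0735) passed without library 2 (1.16, adjusted p = 0.0453), with libraries rescaled to one total (1.00, adjusted p = 0.0414) and with quantile normalization (1.09, adjusted p = 0.0435), and in no other setting tried. These members, LOC100527333, LOC100814402 and the ubiquitin pair are the 6 whose t40 libraries all lay above the controls. LOC100305635 (chromosome 18) was above all controls at 20 min only, with 1363, 939 and 637 FPKM at t0, 1675, 1531 and 2171 FPKM at t20 and 1075, 1048 and 1648 FPKM at t40, and its log2 fold change was 0.92 (SE 0.33, adjusted p = 0.193) at t20 and 0.39 (SE 0.33, adjusted p = 0.397) at t40.

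Among the 6 largest falls at t40 the means ranged from 187 to 322 FPKM at t40 and from 571 to 1040.5 FPKM at t0. LOC100306279 (chromosome 1, 55215420 to 55216163) had 562, 644 and 1083 FPKM at t0, 269.8, 523 and 454 FPKM at t20 and 169, 194 and 289.7 FPKM at t40. LOC100813601 (chromosome 11, 2387230 to 2387911) had 661, 707 and 1160.1 FPKM at t0, 349, 665 and 598 FPKM at t20 and 217, 243 and 331 FPKM at t40. LOC100810363+LOC100820352 (chromosome 11, 1364665 to 1409145) had 804, 891 and 1426 FPKM at t0, 519, 867 and 774 FPKM at t20 and 345, 270.1 and 352 FPKM at t40. In these 3 every t40 library was below every control, library 3 was the highest control and library 4 the lowest t20 library. Their log2 fold changes at t40 were −1.78 (SE 0.34, adjusted p = 0.00742), −1.65 (SE 0.32, adjusted p = 0.00782) and −1.65 (SE 0.29, adjusted p = 0.005), in the order given. LOC100809096 (chromosome 2) and LOC100785061 (chromosome 18) fell likewise, with log2 fold changes of −1.68 (SE 0.32, adjusted p = 0.00676) and −1.63 (SE 0.34, adjusted p = 0.0103). All 5 passed in each of the 9 fits that leave out 1 library, as did 15 of the 130 members.

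The largest fall of all, in LOC100818200 (chromosome 3, 42493574 to 42539779), rested in part on 1 library. It had 698, 761 and 638 FPKM at t0, 318, 736 and 541 FPKM at t20 and 244, 69 and 331 FPKM at t40. Library 8 was far below the other t40 libraries. In that library the annotated transcript of 438 bases had 14.2 FPKM, against 243 and 329.7 FPKM in libraries 7 and 9, while an unannotated transcript of 415 bases had 48.4 FPKM in library 8 and was listed at 0 in the other 8. The log2 fold change at t40 was −1.97 (SE 0.52, adjusted p = 0.0251), and without library 8 it was −1.29 with an adjusted p of 0.0547. The adjusted p was also above 0.05 without library 2 (0.0665) and without library 3 (0.0626), with no filter on low values (0.0567), with quantile normalization (0.0647) and with the most abundant transcript alone (0.0929).

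The share of members called lower at t40 differed between kinds of member. Of the members whose most abundant transcript was over 1000 bases long 12 of 33 were called lower and 2 higher, with a median log2 fold change of −0.81. Of those of 700 to 1000 bases 39 of 49 were called lower (median −1.27), and of those under 700 bases 34 of 48 (median −1.21). Of the 10 members with a control mean of 1000 FPKM or more 4 were called lower (median −0.64), of 74 at 600 to 1000 FPKM 51 were (median −1.18), and of 46 at 500 to 600 FPKM 30 were (median −1.11). Members that peaked in library 3 among the controls had 83 of 105 called lower, against 2 of 25 members that peaked in library 1 or 2. For the log2 fold changes of t40 against t20, which do not use library 3, the medians of these 105 and 25 members were −0.69 and −0.17. These classes were formed after the values were seen and were not tested against each other. Over all tested genes 3.49% were called lower at t40 and 10.5% higher, and shares for tested genes of the same length or peak library were not counted. The classes by control mean and by peak library use t0 values that also enter the change at t40. Nothing is therefore read from the differences between those classes.

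The spread among the controls differed from member to member. Over the 3 controls the members' coefficient of variation had a median of 24.2%, against 24.99% for all tested genes. For tested genes with a control mean of 50 to 500 FPKM the median was lower, at 19.8%. Among the members the coefficient ran from 4.15% to 45.5%. It was smallest in LOC100527680, with 557, 576 and 605 FPKM at t0, 289, 667 and 511 FPKM at t20 and 214, 223 and 289 FPKM at t40, which was called lower at t40 with −1.27 (SE 0.30, adjusted p = 0.0158). LOC547752, with 613, 645 and 593 FPKM at t0, 428, 588 and 506 FPKM at t20 and 347, 359 and 351 FPKM at t40, and LOC100305991+LOC100527904, with 519, 482 and 528 FPKM at t0, 307, 272 and 449.7 FPKM at t20 and 303, 259.5 and 241 FPKM at t40, were nearly as even at t0, and all of their t40 libraries were below all controls. Their log2 fold changes at t40 were −0.81 (SE 0.20, adjusted p = 0.0184) and −0.93 (SE 0.23, adjusted p = 0.019), both short of 2-fold. LOC100305991+LOC100527904 passed at 2-fold without library 7 (−1.02, adjusted p = 0.0467) and with median-ratio scaling (−1.03, adjusted p = 0.0254), and the adjusted p reached 0.0702 without library 7 in the first and 0.0721 without library 8 in the other. The coefficient was largest in LOC100807649, with 386, 440.1 and 852 FPKM at t0, 227, 439 and 356 FPKM at t20 and 158, 172 and 222 FPKM at t40, followed by LOC100527860 and LOC100527854. In each of these 3 library 3 had 822 to 903 FPKM while libraries 1 and 2 had 386 to 513 FPKM, and each was called lower at t40, with log2 fold changes of −1.52, −1.21 and −1.27. The calls of LOC100527680 and LOC100807649 were lost without library 7 or 8 (adjusted p of 0.0526 to 0.0635), that of LOC100527860 without library 3, 7 or 8 (0.072 to 0.1003) and that of LOC100527854 without library 2, 3, 7 or 8 (0.0621 to 0.102). With quantile normalization none of these 4 was called, at −0.94 to −0.54, and with no filter on low values LOC100527860 (adjusted p = 0.0561) and LOC100527854 (adjusted p = 0.0642) were not called. The most abundant of the 3 transcripts of LOC100527680 held 66.5% of its FPKM and alone gave −2.82, against −1.27 for the sum. Whether transcript forms were exchanged was not tested.

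At the threshold of 500 FPKM the members just inside were LOC100811720 (507 FPKM at t0), LOC100815850 (503) and LOC100791962 (503), and the identifiers just outside were LOC100499772 (498), LOC100499963 (498) and LOC100499889 (497.5). The log2 fold changes at t40 were −1.31, −0.88 and −1.05 for those inside and −0.77, −1.08 and −0.90 for those outside. LOC100811720 and LOC100791962 were called lower, the second not without library 2, 3, 7 or 8 (adjusted p of 0.0534 to 0.071). Quantile normalization left both short of 2-fold, at −0.73 and −0.42 in that order, and rescaling to one total left LOC100791962 at −0.92. Of the 130 members 81 had at least 500 FPKM in every control, and 31 would have been below 500 without library 3.

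A further 21 identifiers averaged at least 500 FPKM at t0 but did not meet the name rule: 16 with a messenger RNA and a symbol, 4 ribosomal RNA loci and 1 long noncoding RNA. The highest was MIR2108A+TEFS1, which holds the elongation factor 1-alpha gene TEFS1, with 3773, 3621 and 4581 FPKM at t0, 2189, 3796 and 3322 FPKM at t20 and 1689, 1722 and 2145 FPKM at t40 and a log2 fold change at t40 of −1.11 (SE 0.28, adjusted p = 0.0219). PRP1+PRP2, genes of proline-rich cell wall proteins, had 1601, 1502 and 1283 FPKM at t0, 6786, 2194 and 6644 FPKM at t20 and 10388, 8999 and 6494 FPKM at t40, and rose by 2.54 on the log2 scale at t40 (adjusted p = 0.00438). EF4 had 1209, 1286 and 1881 FPKM at t0, 889, 1587 and 1267 FPKM at t20 and 705, 659.9 and 808 FPKM at t40, with −0.99 (SE 0.28, adjusted p = 0.0331). GRP had 1132, 1271 and 1429 FPKM at t0, 754, 735 and 1022 FPKM at t20 and 383, 381 and 404 FPKM at t40, and fell by 1.71 on the log2 scale at t40 against t0 (adjusted p = 0.00137) and by 1.09 at t40 against t20 (adjusted p = 0.0445). PIP1-7, an aquaporin of the plasma membrane, had 1492, 961 and 1088 FPKM at t0, 2994, 1392 and 3028 FPKM at t20 and 2228, 2039 and 1768 FPKM at t40, and its log2 fold change at t40 was 0.79 (SE 0.34, adjusted p = 0.116). The genes with a symbol thus held both falls and a rise at 40 min, and the largest rise of these 5 was higher than that of any member.

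The 4 genes with a ribosomal protein symbol given here were picked for comparison after their values were seen. RPL2 averaged 684 FPKM at t0, and RPS6, RPS13 and RPL37 288 to 311 FPKM. RPL2 had 489.6, 597 and 965 FPKM at t0, 302, 490 and 414 FPKM at t20 and 224, 216 and 321 FPKM at t40. In each of these 4 genes every t40 library was below every control, and library 9 was the highest t40 library. Log2 fold changes at t40 were −1.39 (SE 0.31, adjusted p = 0.0126) for RPL2, −1.07 (SE 0.29, adjusted p = 0.0283) for RPS6, −0.99 (SE 0.26, adjusted p = 0.0249) for RPS13 and −0.91 (SE 0.31, adjusted p = 0.0573) for RPL37. Which of the members encode ribosomal proteins cannot be read from the files, since LOC numbers carry no description.

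The change at t40 went with the level of a gene across the whole table. With genes grouped by control mean, the median log2 fold change at t40 was 0.82 under 1 FPKM, 0.10 at 1 to 10, −0.07 at 10 to 50, −0.52 at 50 to 500 and −1.12 at 500 or more (151 genes). Grouping by the control mean itself pulls these values apart, and grouping by the mean of all 9 libraries gave 0.23, 0.09, 0.05, −0.34 and −0.97 (89 genes in the top group). Grouping by the t20 libraries, which enter neither side of the comparison, gave 0.23, 0.09, 0.05, −0.33 and −0.90 (90 genes). By that grouping 41.1% of the top group was called lower and 12.2% higher. The log2(FPKM + 1) scale understates the change of genes under 1 FPKM.

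**Figure D5:**
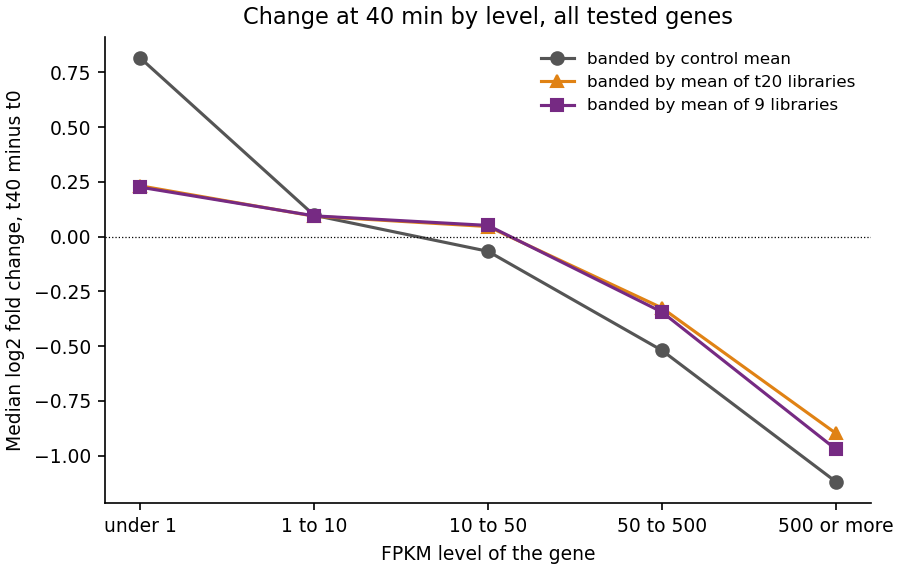
Median log2 fold change of all tested genes at t40 minus t0 (vertical axis) by FPKM level of the gene (horizontal axis), with the level taken from the controls, from the t20 libraries or from all 9 libraries. In each grouping the value is lowest at 500 FPKM or more: −1.12, −0.90 and −0.97.

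Other LOC identifiers reached the level of 500 FPKM during the treatment: 5 averaged at least 500 FPKM at t20 and 12 at t40 without having done so at t0. The highest of the 12 at t40 was LOC100499848 (chromosome 8), with 741, 429.5 and 193 FPKM at t0, 1878, 812 and 1595 FPKM at t20 and 1999, 2126 and 1808 FPKM at t40 and a log2 fold change at t40 of 2.32. The next, LOC100800239 (chromosome 11), had 436, 519 and 97 FPKM at t0, 542, 575 and 364 FPKM at t20 and 1207, 1145 and 829 FPKM at t40, with 1.90. Since a mean under 500 FPKM at t0 and above it at t40 chose these 12, their changes are a description without a test. Both lay above all controls at t40, and library 3 was their lowest control. The 12 include LOC547975 and LOC100816984, which had been close to the threshold at t0 with 486 and 428 FPKM and whose log2 fold changes were 0.06 and 0.32.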

How the data were processed

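The members and every list were chosen with earlier results of these data known. The authors used Trimmomatic 0.32 to trim the reads and HISAT2 to align them to Glycine_max_v4.0, ran StringTie for the assembly and deposited the FPKM of 119600 transcripts, extracted with Ballgown. The coverage in 9 further columns was not used. FPKM of all transcripts of a gene identifier were summed, and 490 transcripts without one were taken by name. limma 3.58.1 in R 4.3.3 (lmFit, eBayes with a variance trend) was fitted to log2(FPKM + 1) of the 32763 genes with at least 1 FPKM in at least 3 libraries, in a single fit of the 9 libraries, and p-values were adjusted over all of these genes by the Benjamini-Hochberg method. A member was called at an adjusted p under 0.05 and a log2 fold change of at least 1 in size. The script was tested on simulated data. Count models were not used because FPKM are no counts.

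Named were the 12 members with the highest control mean, up to 6 with the largest rise and 6 with the largest fall among those called, the 3 on each side of the threshold, the 3 with the smallest and the 3 with the largest coefficient of variation at t0, the 3 with the smallest range, and the 5 highest genes with a symbol. Members with a synonym, members above all controls, ribosomal protein symbols and the identifiers that reached 500 FPKM later were added after their values were seen, and 1 item is not reported here. Names, chromosomes and synonyms come from the RefSeq annotation of Glycine_max_v4.0, and start and end from the deposited table. Alternatives were other pseudocounts (0.1 and 0.5), filters, scalings, thresholds (250 and 1000 FPKM), choices of members and fits, and leaving out each library in turn.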

Additional observations from a re-analysis of the deposited data

How the results depend on the processing

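No member count, member median or named member called at t40 reversed its direction. The direction of named members that were not called was not followed over the alternatives, and some of their changes lay close to 0. The median of all tested genes at t40, 0.06 as deposited, was −0.11 with quantile normalization, −0.04 without library 3 and −0.01 with median-ratio scaling. Member calls at t40 against t0 ranged from 19 to 90 when 1 library was left out, those at t20 against t0 from 0 to 1 and those at t40 against t20 from 0 to 23. At t40 against t0 1.65% to 4.61% of all tested genes were then called lower and 7.47% to 11.8% higher. The median log2 fold change of the members ranged from −0.71 to −0.25 at t20, from −1.31 to −0.88 at t40 and from −0.92 to −0.44 at t40 against t20, and the number of members from 105 to 161. Calls at t40 numbered 56 with no filter (0 of them higher), 13 with quantile normalization, 230 of 422 members at a threshold of 250 FPKM, 4 of 10 at 1000 FPKM and 40 of 64 with members chosen on all 9 libraries. An unadjusted p with a 2-fold change gave 2 calls at t20 and 8 at t40 against t20, with the counts over all tested genes given above. The median at t40 was −0.52 with quantile normalization and −0.64 at a threshold of 1000 FPKM, and at t40 against t20 it was −0.27 and −0.086. The share of total FPKM at t0, t20 and t40 was 28.1%, 22.6% and 17.6% at a threshold of 250 FPKM, 2.01%, 1.66% and 1.61% at 1000 FPKM, and 7.61%, 6.88% and 6.04% with members chosen on all 9 libraries. Over annotated messenger RNA alone the share was 15.18% at t0, 12.05% at t20 and 9.39% at t40. Asking for 500 FPKM in every control left 81 members, and the mean of all 9 libraries 64. Other thresholds and choices change these values by changing which genes are members. For the other changes the cause was not tested. Of the named members called at t40, 53 of 342 values lost a call and 289 kept it. No paired analysis was possible because the columns carry no replicate numbers. Sequence features of promoters and proteins were not analysed here. With 3 libraries a group and no fragment counts, an adjusted p near the threshold moves with 1 library.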
